A study of Mus musculus with 9 samples.

Results

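The livers of 3 mice with non-alcoholic steatohepatitis (NASH) induced by the Ath diet were compared with the livers of 3 Control mice across all genes. These are 6 of the 9 RNA sequencing libraries of the study. They were taken by their treatment labels, with 1 library per mouse (Control replicates 3, 4 and 29 and NASH replicates 5, 19 and 20). All 6 mice were wild type males of the strain C57/BL. NASH mice had received the atherogenic Ath diet, which contains cholesterol and cholate, and Control mice had received normal chow. Both groups were kept sedentary for the last 8 weeks, from 20 weeks of age. The length of feeding was read from the study's methods as 20 weeks in all, which they do not state as a total. All mice were fasted overnight before the liver was taken. The remaining 3 mice of the study, which were fed the Ath diet and trained on a treadmill, entered only the estimate of the spread between mice. Because the diets differed as a whole, effects of the cholesterol, of the cholate and of the liver disease that develops on this diet cannot be told apart.

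Steatohepatitis joins the storage of fat in hepatocytes with inflammation and scarring. Cholate is a bile acid, and the liver senses bile acids through nuclear receptors that reduce the synthesis of further bile acid. Cholesterol is sensed through SREBP2, which drives cholesterol synthesis when sterols are scarce, and through the LXR receptors, which drive sterol export when they are abundant. Macrophages, neutrophils and lymphocytes enter the inflamed liver, and stellate cells that have become myofibroblasts lay down collagen.

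Differentially expressed genes (DEGs) were those that differed by more than 1 on the log2 scale with a Benjamini-Hochberg adjusted p below 0.05 (edgeR, quasi-likelihood). There were 2494 of them among 13619 genes tested, or 18.3%. Up-regulated DEGs numbered 2082 (15.3%) and down-regulated DEGs 412 (3.03%). Counts of list members below are to be read against these shares. The groups of single mice did not overlap in 49.6% of all genes, with NASH higher in 27.4% and lower in 22.2%. A rise of over 5 on the log2 scale was seen in 52 DEGs. At the other end, the 95% interval of the log2 fold change lay wholly between -1 and 1 in 8040 genes (59%), so that for these genes a change past the threshold on the fold lay outside the interval. Between these, 3085 genes were not DEGs although their interval reached past 1 or -1.

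The total of estimated counts lay between 20085976 and 22495408 in the 6 libraries. TMM factors, which correct each library for its composition, were 0.80 to 0.976 in Control and 1.09 to 1.23 in NASH. Without them, the median over all genes moved from 0.01 to 0.36 on the log2 scale, and the share of DEGs that were up-regulated moved from 83.5% to 92.7%. Groups of genes whose median changed sign under that scaling are named as such. In a principal component analysis of these 6 mice, the first component held 75.3% of the variance and placed Control between -70.3 and -44.5 and NASH between 55.6 and 67.8. The second held 11.3% and set Control 4, at -41.2, against Control 29, at 30.4. Among genes above 1 CPM in Control, the median coefficient of variation between mice was 16.1% in Control and 10.6% in NASH. Levels of single genes below are normalized counts (CPM after TMM) in Control replicates 3, 4 and 29 and then NASH replicates 5, 19 and 20, and log2 fold changes are NASH minus Control.

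Up-regulated and down-regulated genes stood at different levels. The median Control level was 1.1 CPM for up-regulated DEGs, 75.2 CPM for down-regulated DEGs and 12.8 CPM for all genes tested. By TPM, which allows levels of different genes to be compared, 33% of the 2008 genes with a mean under 1 TPM over the 6 mice were up-regulated and 2.39% were down-regulated. Of the 116 genes at 1000 TPM or more, 5.17% were up-regulated and 25.9% were down-regulated. The genes that take most of the liver's transcripts fell more often than they rose, and up-regulated DEGs were more frequent among scarce transcripts. Part of this is set by the method. A gene near the floor in Control can hardly be called down-regulated, and the filter also kept genes that were counted in only some groups. Of the up-regulated DEGs, 147 were at 3 counts or fewer in each Control mouse. For these, the fold is given as a lower bound computed from 3 counts per library, which covers counting error only. In bulk tissue such as this, a change in the number of cells of a type and a change in RNA per cell cannot be told apart.

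**Figure D1:**
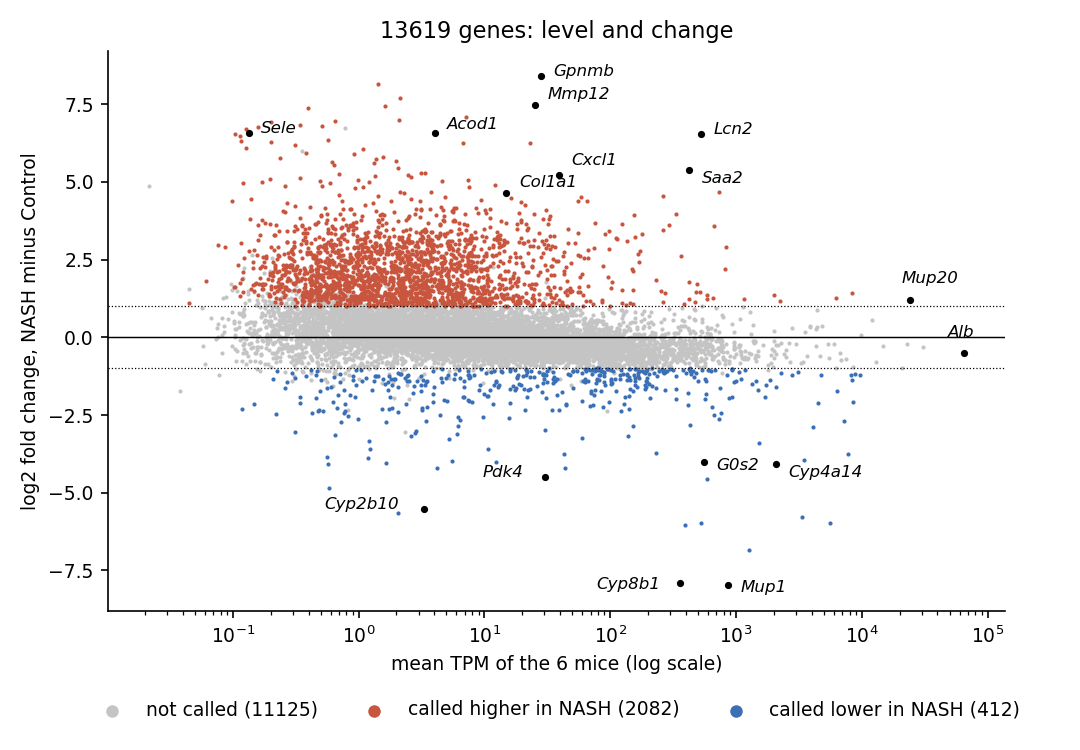
Each point is 1 of 13619 genes. The horizontal axis is the mean TPM of the 6 mice on a log scale and the vertical axis is the log2 fold change of NASH minus Control, with dotted lines at 1 and -1. The 2082 up-regulated genes (red) lie mostly below 10 TPM, and the 412 down-regulated genes (blue) extend to the most abundant transcripts at the right.

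The single gene with the largest increase at 5 CPM or more was Gpnmb (Entrez Gene 93695), which encodes a membrane glycoprotein of lipid-laden macrophages. Its levels were 0.429, 0.0556 and 0.408 CPM in Control and 51.3, 190 and 70.8 CPM in NASH. The groups were orders of magnitude apart, with NASH 19 highest. Lcn2 (16819), a secreted iron-scavenging protein of innate defence, was measured at 6.39, 3.17 and 4.03 CPM in Control and at 340, 609 and 329 CPM in NASH. The groups were far apart, and the log2 fold change was 6.55 (standard error 0.50, edgeR, adjusted p = 1.66e-05). The 15 largest increases by this rule also included the elastase Mmp12, the itaconate-producing enzyme Acod1, the ubiquitin-like modifier Ubd, the chemokine Cxcl1, the integrin Itgax, the lipid receptor Trem2, the galectin Lgals3, the lipase Lpl and the collagen chain Col1a1, at 4.4 to 7.48 on the log2 scale.

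Among the 15 largest decreases by the same rule, 7 were genes of the major urinary proteins (Mup), which share most of their sequence. The others included Cyp8b1, Pdk4, Acot3, Cyp4a14, G0s2, the transcription factor gene Pitx3, and Raet1d and Raet1e. The last 2 encode near-identical ligands of the receptor NKG2D of natural killer cells, and their reads can be split uncertainly between them. They fell by 4.01 and 3.99 on the log2 scale. Raet1d was measured at 16, 16.9 and 24.7 CPM in Control and at 1.08, 1.09 and 1.4 CPM in NASH. The groups did not overlap.

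**Figure D2:**
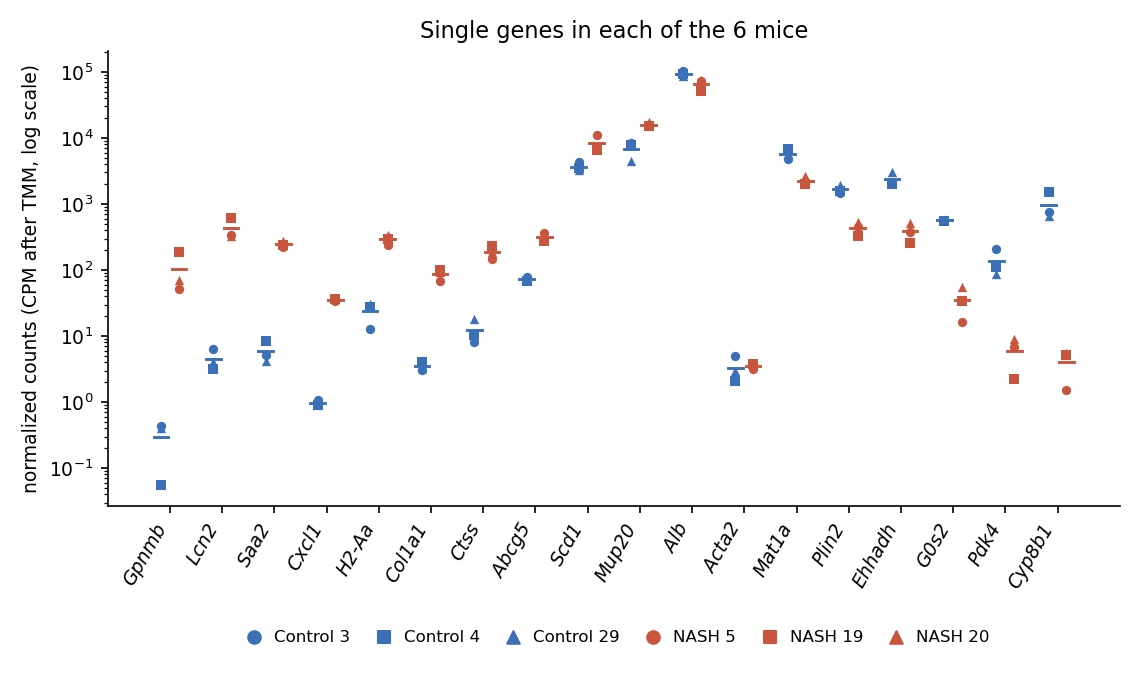
Normalized counts (CPM after TMM, log axis) of 18 genes in each of the 6 mice, with Control in blue, NASH in red, a marker shape for each mouse and a line at the mean of each group. Gpnmb to Mup20 were up-regulated, Alb and Acta2 were not DEGs, and Mat1a to Cyp8b1 were down-regulated, with Cyp8b1 between 1.54 and 5.44 CPM in NASH.

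Genes of bile acid synthesis were mostly lower in NASH. Of 16 tested, 4 fell (25%, where 3.03% of all genes did) and 1 rose (6.25%, where 15.3% did). The median log2 fold change was -0.62. Cyp8b1 (Entrez Gene 13124), which adds the 12-alpha hydroxyl group that distinguishes cholic acid, was measured at 746, 1537 and 651 CPM in Control and at 1.54, 5.24 and 5.44 CPM in NASH. No other gene outside the Mup family fell as far (log2 fold change -7.90, standard error 0.68, edgeR, adjusted p = 3.52e-05). Cyp7b1, of the alternative pathway, fell by 2.09 on the log2 scale, and the peroxisomal genes Acot8 and Hsd17b4 fell by 1.47 and 1.15. The rate-limiting enzyme of the classical pathway, Cyp7a1, had levels of 12.4, 34.5 and 4.75 CPM in Control and 2.12, 17 and 6.46 CPM in NASH. Its groups overlapped and it was not a DEG (log2 fold change -1.01, 95% interval -2.86 to 0.85, edgeR, adjusted p = 0.381). Cyp2c70, which makes the muricholic acids of rodents, was measured at 183, 201 and 131 CPM in Control and at 680, 582 and 512 CPM in NASH. It was the 1 gene of the group that rose (log2 fold change 1.79, standard error 0.23, edgeR, adjusted p = 0.000179).

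Transporters of bile acids and sterols moved in both directions. Of 16 tested, 5 rose (31.2%, where 15.3% of all genes did) and 2 fell (12.5%, where 3.03% did). The median was 0.02. Slc51b (330962), a subunit of the transporter that returns bile acids to blood, was measured at 0.215, 0.111 and 0.204 CPM in Control and at 3.49, 2.56 and 1.28 CPM in NASH (log2 fold change 3.74). Slc10a1, which takes bile acids up from blood, was measured at 614, 645 and 625 CPM in Control and at 242, 250 and 335 CPM in NASH (log2 fold change -1.19). Abcb11, the bile salt export pump, had a log2 fold change of 0.36 and was not a DEG. Sterol exporters that are classical LXR targets rose, namely Abcg1 (11307) by 3.49, Abcg5 by 2.12 and Abcg8 by 1.77 on the log2 scale, while Abca1 had 0.98 and was not a DEG. Abca1 was one without Control 29 (1.24), NASH 5 or NASH 20 (1.01 each) and under scaling by library size alone (1.30), where 6 of the list rose and 0 fell. Abcg5, which moves sterols into bile, was measured at 79.1, 69.2 and 69.5 CPM in Control and at 359, 277 and 307 CPM in NASH. The groups were separated by a gap several times their own spread (standard error 0.17, edgeR, adjusted p = 1.43e-05). The multidrug transporter Abcb1a was the fifth to rise, and Slco1a1, the other gene that fell, was no DEG without Control 3 (adjusted p = 0.0861 by edgeR), Control 29, NASH 5 or NASH 19.

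Cholesterol synthesis genes and other SREBP2 targets were lower in 23 of 25 cases. Of these, 8 fell and 0 rose, and the median was -0.76. Idi1 (319554), which isomerizes the isoprene unit, was measured at 4.24, 3.5 and 7.76 CPM in Control and at 0.582, 1.13 and 0.595 CPM in NASH (log2 fold change -2.74, standard error 0.37, edgeR, adjusted p = 0.000298). Sqle, which oxidizes squalene, fell by 2.25, Tm7sf2 by 2.21, Hsd17b7 by 2.11, Cyp51 and Msmo1 by 1.68, Hmgcs1 by 1.33 and Fdps by 1.19 on the log2 scale. Fdps was no DEG without Control 4, NASH 19 or NASH 20. Scaled by library size alone, 6 members were down-regulated and the median was -0.39.

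The promoter of Hmgcs1, an early enzyme of the mevalonate pathway, is shown because it was the 1 cholesterol gene of those searched with a match to a sterol regulatory element of the letters TCACNCCAC. Both strands of the 250 bases before each RefSeq gene start were searched. The letters were found in 1 of 17 list members with a window (5.88%) and in 1.27% of 10824 tested genes. Below is the strand of the gene, 5′ to 3′, from RefSeq on GRCm38.p6 at chr13:119690101-119690350, with the match in capitals.
Hmgcs1: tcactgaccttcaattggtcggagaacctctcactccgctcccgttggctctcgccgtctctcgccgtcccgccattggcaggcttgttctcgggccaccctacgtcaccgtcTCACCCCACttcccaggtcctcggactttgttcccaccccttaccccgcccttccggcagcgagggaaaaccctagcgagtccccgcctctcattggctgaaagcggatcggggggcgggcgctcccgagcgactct
Hmgcs1 itself was measured at 119, 68.2 and 86.8 CPM in Control and at 38.5, 33.6 and 37 CPM in NASH. A match is a description of the letters and not a site of binding.

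Fatty acid oxidation genes and other PPAR alpha targets fell as a group. All 25 were lower in every NASH mouse than in any Control mouse, where 22.2% of all genes were. Of the 25, 19 were down-regulated, where 3.03% of all genes were. The median log2 fold change was -1.38, and the gene nearest to 0, Acads, had -0.71. Pdk4 (27273), a kinase that spares glucose in fasting, was measured at 207, 110 and 87.2 CPM in Control and at 6.94, 2.25 and 8.88 CPM in NASH (log2 fold change -4.49, standard error 0.51, edgeR, adjusted p = 0.000162). Cyp4a14 (13119), an omega-hydroxylase of fatty acids, was measured at 6184, 4083 and 8442 CPM in Control and at 169, 126 and 803 CPM in NASH. Even the highest NASH mouse, NASH 20, lay far below the lowest Control mouse. Acot1 fell by 3.73, Cyp4a10 by 3.39, the peroxisomal enzyme Ehhadh by 2.63 and the fasting hormone Fgf21 by 2.17 on the log2 scale. Cpt1a, the gate of mitochondrial oxidation, was near the threshold with -1.0, and it was no DEG without Control 29 (-0.93) or NASH 5 (-0.94). Ppara, which encodes the receptor, had -0.90 and was not a DEG, although it was one when NASH 20 was left out (-1.08). The share of all TPM taken by these 25 genes was 2.96% ± 0.935 (SD, n = 3) in Control and 1.18% ± 0.246 (SD, n = 3) in NASH.

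Lipid droplet proteins and lipases were also lower, with 5 of 13 down-regulated, 0 up-regulated and a median of -0.74. G0s2 (14373), which inhibits the main triglyceride lipase, was measured at 570, 551 and 574 CPM in Control and at 16.4, 34.3 and 55.1 CPM in NASH. Control mice were within a narrow range, and all NASH mice lay far below it (log2 fold change -4.0, standard error 0.40, edgeR, adjusted p = 7.54e-05). The droplet coat genes Plin2, Plin5 and Cidec fell by 1.93, 1.55 and 2.16, and the lipase gene Mgll fell by 1.92. Plin3, another coat protein, was the 1 member above 0, with 0.70.

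Synthesis of fatty acids and triglycerides showed no common direction. Of 20 genes, 4 rose (20%, where 15.3% of all genes did) and 4 fell (20%, where 3.03% did). The median of -0.06 became 0.29 under scaling by library size alone. Scd2, a desaturase, was measured at 2.74, 2.22 and 2.7 CPM in Control and at 22.2, 35.6 and 23.7 CPM in NASH (log2 fold change 3.41). Srebf1, the transcription factor gene of lipogenesis, rose by 1.93. Scd1, the abundant desaturase of hepatocytes, was measured at 4258, 3484 and 3252 CPM in Control and at 11039, 6663 and 7133 CPM in NASH. The log2 fold change of Scd1 was 1.18 (standard error 0.26, edgeR, adjusted p = 0.00551), and without NASH 5 it was 0.91 and no DEG. The other gene that rose was Pnpla3, which was no DEG without Control 4 (0.97). Me1, which supplies NADPH, fell by 2.15, Acacb by 1.91, Elovl6 by 1.30 and Elovl5 by 1.26, of which Elovl6 was no DEG when any mouse but Control 4 was left out. Fasn, the fatty acid synthase, had 0.25 and overlapping groups.

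Enzymes of glucose and glycogen divided by their usual tissue. Of 21, 5 rose (23.8%, where 15.3% of all genes did) and 4 fell (19%, where 3.03% did). The 5 that rose were the forms usual outside hepatocytes, namely Hk2 (3.32), Hk3 (3.12), Pkm (2.51), Pfkp (2.11) and Hk1 (1.51 on the log2 scale). The 4 that fell included the hepatocyte enzymes G6pc (-2.0), Fbp1 (-1.22) and Gys2 (-1.03), the last no DEG without Control 29 (-0.83) or NASH 19 (-0.88). Pklr, the pyruvate kinase of hepatocytes, had 0.03 and was not a DEG. G6pc, the last step of glucose production, was measured at 821, 991 and 529 CPM in Control and at 316, 78.2 and 190 CPM in NASH. The groups did not overlap, and NASH 5 was closest to Control. The median of the 21 genes was -0.00, so the list as a whole did not lean either way, and under scaling by library size alone it was 0.36, with 6 that rose and 1 that fell.

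Amino acid metabolism was lower across the list. All 26 genes of the urea cycle and of amino acid catabolism were below 0, 10 fell and 0 rose, with a median of -0.83. Of the methionine cycle, Bhmt (12116), which remethylates homocysteine, was measured at 3265, 4534 and 2853 CPM in Control and at 540, 1612 and 691 CPM in NASH. Gnmt fell by 1.54, Cth by 1.66 and Mat1a, which makes S-adenosylmethionine, by 1.38. Asl fell most in this list (log2 fold change -2.0, standard error 0.28, edgeR, adjusted p = 0.000407), whereas Cps1, which starts the urea cycle, had -0.31 (0.04 under scaling by library size alone). Under scaling by library size alone, 21 of the 26 remained below 0 and 6 were DEGs.

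Cytochrome P450 genes of families 1 to 3 were lower in 25 of 29 cases, with a median of -0.78. Of the 29, 10 were down-regulated (34.5%, where 3.03% of all genes were) and 1 was up-regulated (3.45%, where 15.3% were). Scaled by library size alone, 5 were down-regulated. Cyp2b10, the classical target of the xenobiotic receptor CAR, was measured at 12.7, 10.3 and 2.35 CPM in Control and at 0.416, 0.0776 and 0.0425 CPM in NASH (log2 fold change -5.53, standard error 0.83, edgeR, adjusted p = 0.000747). Nr1i3, the gene of CAR itself, was at the threshold with -1.01 and was no DEG without Control 3, Control 4, NASH 5 or NASH 19 (-1.0, -0.97, -0.83 and -0.97). Cyp2c40 fell by 3.18 and was no DEG without Control 29 (edgeR, adjusted p = 0.051), and as Cyp2c copies are near-identical its value is uncertain. The up-regulated member, Cyp2a4, was no DEG when any mouse but NASH 20 was left out. Conjugation enzymes, which join glutathione, glucuronic acid or sulfate to their substrates, had a median of -0.61. Of 32, 2 rose (6.25%, where 15.3% of all genes did) and 6 fell (18.8%, where 3.03% did). Scaled by library size alone, 4 rose and 3 fell, with a median of -0.25. Gstm3 was measured at 27.3, 21.7 and 10.9 CPM in Control and at 278, 198 and 122 CPM in NASH, and Gsta1 rose by 2.70. Ugt1a9, whose last exons are common to the Ugt1a genes so that reads can be split uncertainly, fell by 1.69, and Ugt3a1 by 1.62. Gstm3 and Gsta1 are also targets of NRF2, the sensor of oxidative stress. Of 21 NRF2 targets, 6 rose (28.6%, where 15.3% of all genes did) and 1 fell (4.76%, where 3.03% did). The list's largest increase was that of the cystine transporter Slc7a11, which was at 3 counts or fewer in each Control mouse and was at least 11.5-fold higher in NASH. Nqo1 and Gclc, which are textbook NRF2 targets too, had 0.65 and -0.40, and the median of the list was 0.12.

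**Figure D3:**
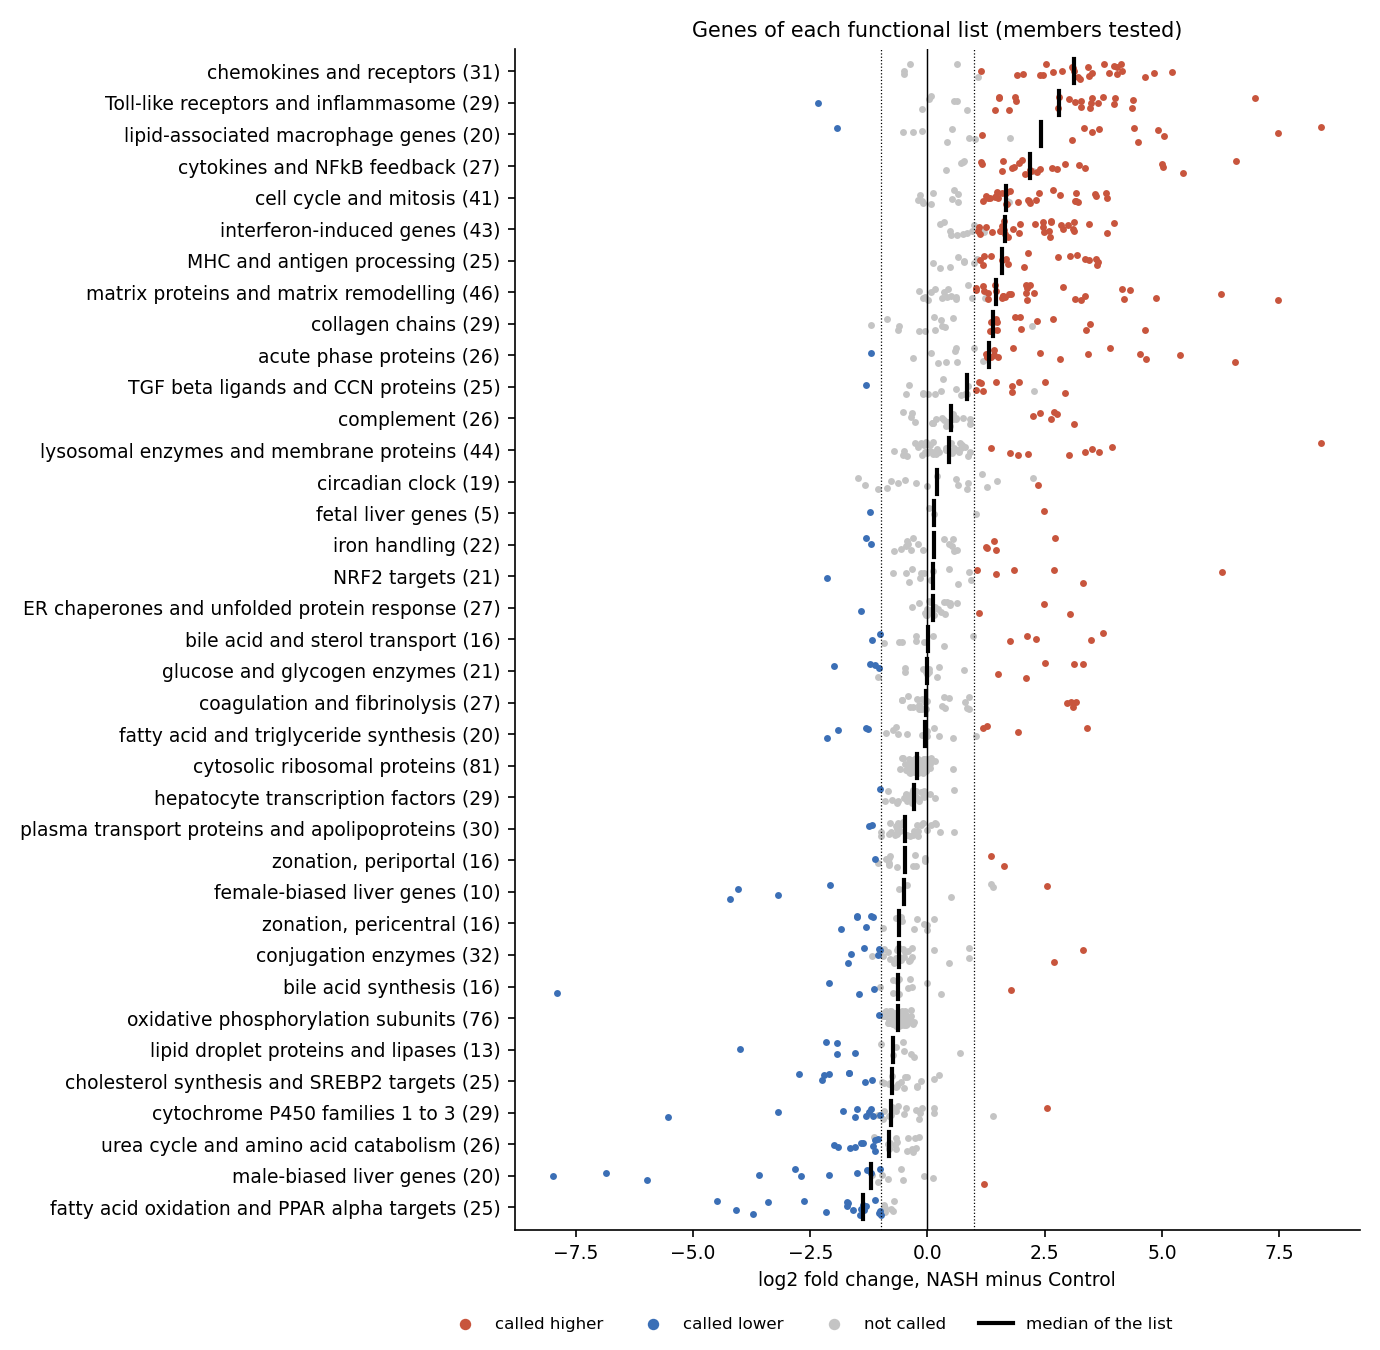
Log2 fold changes (NASH minus Control) of the genes in 37 functional lists, ordered by their median, with the number of members tested in parentheses and vertical scatter only for legibility. Red points were up-regulated, blue points were down-regulated, grey points were not DEGs, and dotted lines stand at 1 and -1. Lists of inflammation, cell cycle and matrix lie to the right, and the list of fatty acid oxidation has its 25 members left of 0.

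Most of the abundant secreted proteins of hepatocytes stayed within the threshold. Of 30 plasma transport proteins and apolipoproteins, 2 fell, Mttp and Igfals, and 0 rose, with a median of -0.47. Together they took 23.6% ± 0.17 (SD, n = 3) of all TPM in Control and 23.8% ± 1.65 (SD, n = 3) in NASH. Without Control 3, Control 29 or NASH 20, 4 members were down-regulated. Albumin, the most abundant transcript, was measured at 73855, 58089 and 71620 TPM in Control and at 68465, 52817 and 68285 TPM in NASH, which overlapped. On the CPM scale, which carries the TMM factors, Alb had a log2 fold change of -0.52 (95% interval -1.01 to -0.04, edgeR, adjusted p = 0.0889).

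Acute phase genes, most of which encode proteins that the liver secretes in inflammation, rose in 16 of 26 cases, with 1 fall and a median of 1.31. Without Control 3, Control 29, NASH 19 or NASH 20, 14 rose. Saa2 (20209) was measured at 5.1, 8.51 and 4.13 CPM in Control and at 222, 243 and 273 CPM in NASH (log2 fold change 5.38, standard error 0.44, edgeR, adjusted p = 2.42e-05). Saa1 and Saa2, and Orm1, Orm2 and Orm3, are near-identical copies whose single values are uncertain, but every one of the 5 rose, by 1.35 to 5.38. Hpx, which binds haem, was measured at 3148, 4206 and 3543 TPM in Control and at 15228, 12355 and 12055 TPM in NASH, and by its NASH level it was among the 10 most abundant transcripts. The share of all TPM taken by the list was 1.42% ± 0.133 (SD, n = 3) in Control and 3.91% ± 0.212 (SD, n = 3) in NASH. Hamp, the iron hormone hepcidin, went the other way, with 744, 958 and 898 CPM in Control and 248, 518 and 360 CPM in NASH. The log2 fold change of Hamp was -1.21 (standard error 0.30, edgeR, adjusted p = 0.00973), and without NASH 5 it was -0.99 and no DEG. Id1, like Hamp a target of BMP signals, fell by 1.32, while Bmp6, the ligand, had -0.45 with an interval that included 0.

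The DEGs among complement and coagulation factors were genes made mainly outside hepatocytes. In the complement list 6 of 26 rose (23.1%, where 15.3% of all genes did) and 0 fell. The 6 were the C1q chains C1qa, C1qb and C1qc, properdin (Cfp) and the receptors C3ar1 and C5ar1, all of them genes of myeloid cells. C1qb was measured at 17.2, 25.6 and 28.7 CPM in Control and at 165, 159 and 163 CPM in NASH. The central component C3, made by hepatocytes, had a log2 fold change of 0.32 and was not a DEG. By edgeR adjusted p under 0.05 alone, 12 members were higher and 1 lower. They included C4b (0.90), C9 (0.75) and Hc (0.60), which stayed below the threshold on the fold. The list took 0.897% ± 0.0187 (SD, n = 3) of all TPM in Control and 1.59% ± 0.121 (SD, n = 3) in NASH. In the coagulation list 4 of 27 rose (14.8%, where 15.3% of all genes did) and 0 fell. The 4 were F13a1, Plau, Plaur and Plat, at 2.97 to 3.16 on the log2 scale. The median of -0.03 became 0.34 under scaling by library size alone, with 7 that rose. By edgeR adjusted p under 0.05 alone, 7 were higher and 0 lower, among them Cpb2 (0.89), F11 (0.88) and Pros1 (0.84). Prothrombin (F2) and the 3 fibrinogen chains had -0.55 and 0.32 to 0.37.

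The Mup genes encode small proteins that male mice excrete in urine. Of 22 tested, 17 fell and 1 rose, with a median of -2.56, and the family took 10.7% ± 2.81 (SD, n = 3) of all TPM in Control and 5.88% ± 0.75 (SD, n = 3) in NASH. Since the copies share reads, the family total is more certain than any member. Mup7 was measured at 10596, 15741 and 6583 TPM in Control and at 75.8, 369 and 297 TPM in NASH. Mup20, which has a more distinct sequence, was the member that rose, from 14360, 11564 and 8604 TPM to 33855, 37274 and 38384 TPM. On the CPM scale its log2 fold change was 1.21, and without Control 29 it was 0.93 and no DEG. Genes with male-biased expression, a list that shares 6 members with the Mup family, fell in 11 of 20 cases. Outside that family they included the complement regulator Susd4 (-3.59) and Cyp7b1, and Elovl3 (-2.82), which was no DEG when any mouse but Control 29 was left out. The 10 female-biased genes tested did not move the other way, as 4 fell and 1 rose, with a median of -0.51, and the count that rose was 0 without Control 3, Control 29, NASH 5 or NASH 19 and 2 without NASH 20.

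**Figure D4:**
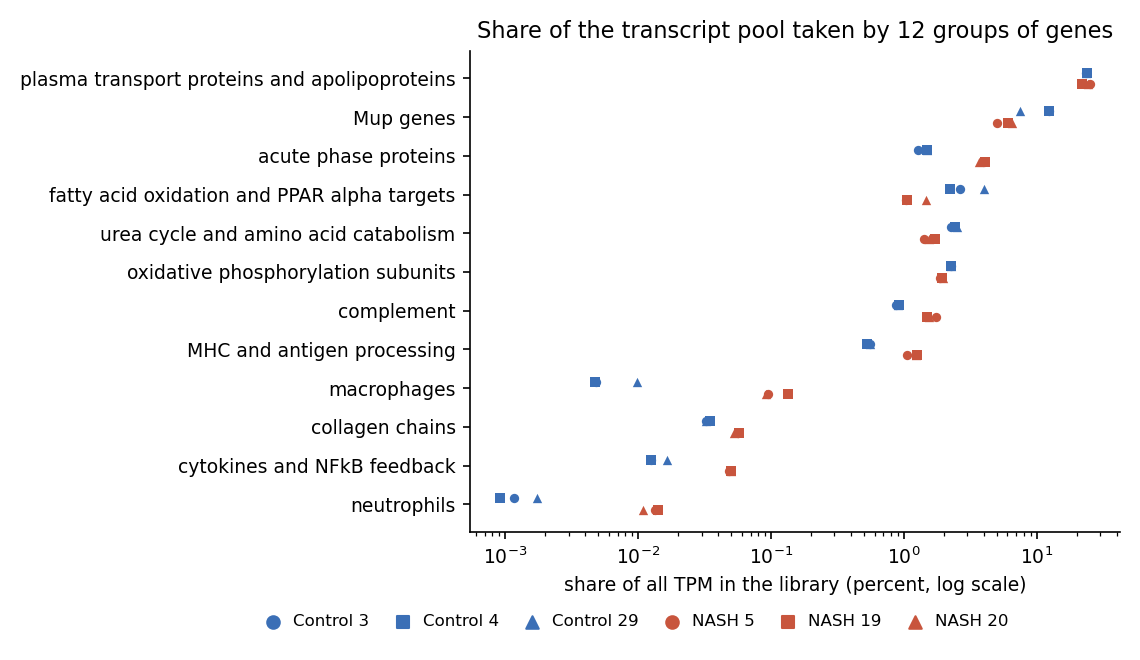
Share of all TPM in each library taken by 12 groups of genes, in percent on a log axis, with 1 point per mouse, Control in blue and NASH in red. Acute phase proteins stood at 1.27 to 1.5% in Control and at 3.67 to 4.08% in NASH, while plasma transport proteins overlapped between the groups.

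Genes of hepatocyte identity mostly stayed within the threshold. Of 29 transcription factors of hepatocytes, 1 fell (Nr1i3, above) and 0 rose, 19 had an interval inside -1 to 1, and the median of -0.28 became 0.07 under scaling by library size alone. Without Control 29 or NASH 20, 3 of them were down-regulated, and without any other mouse none was. Hnf4a, the master regulator, was measured at 943, 922 and 850 CPM in Control and at 707, 542 and 732 CPM in NASH (log2 fold change -0.45, edgeR, adjusted p = 0.0885). All 10 hepatocyte markers were below 0, with 2 down-regulated, Fabp1 and, except without Control 4 (-0.99), Cyp2e1, and a median of -0.81. By TPM they took 13.3 to 14.8% of the pool in Control and 10.7 to 13.2% in NASH. Pericentral genes, which are active around the central vein, fell in 6 of 16 cases, led by Oat (-1.84), the transcription factor gene Tbx3 (-1.51), Lhpp (-1.5) and the Wnt target Axin2 (-1.32), with a median of -0.61. Without Control 4, 3 of them were DEGs, Tbx3 not among these, and under scaling by library size alone 2 were, with a median of -0.25. Of 16 periportal genes, 1 fell (6.25%, where 3.03% of all genes did) and 2 rose (12.5%, where 15.3% did). The 2 that rose, Cdh1 and Ctsc, are also expressed by cholangiocytes and macrophages. Without Control 29, 3 periportal genes were down-regulated, and without NASH 5, 2 were, but none under scaling by library size alone.

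Oxidative phosphorylation subunits shifted together by less than the threshold. All 76 were below 0, 69 had an edgeR adjusted p under 0.05, and the groups of mice did not overlap in 70, where 22.2% of all genes had lower, non-overlapping levels. Only Ndufb9, with -1.03, passed the threshold on the fold, and it was no DEG without Control 4 (-0.89) or NASH 19 (-1.0). Without Control 29, 5 subunits were DEGs, and without Control 3, 2 were. The log2 fold changes ran from -1.03 to -0.29 with a median of -0.63, and under scaling by library size alone the median was -0.27 and 73 remained below 0. Atp5b, of the ATP synthase, was measured at 1113, 1412 and 1087 CPM in Control and at 712, 585 and 690 CPM in NASH. By share of TPM, which does not use the TMM factors, the subunits took 2.25% ± 0.00288 (SD, n = 3) in Control and 1.91% ± 0.0423 (SD, n = 3) in NASH. Of 81 cytosolic ribosomal protein genes, 73 were below 0 and 8 had an edgeR adjusted p under 0.05. The groups did not overlap in 34, with NASH lower in 33 and higher in 1. The interval lay inside -1 to 1 in 80 of these genes, and in 42 of the 76 oxidative phosphorylation subunits. Of the ribosomal genes 0 were DEGs, and their median of -0.23 became 0.13 under scaling by library size alone.

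Chaperones of the endoplasmic reticulum and genes of the unfolded protein response mostly stayed within the threshold on the fold. Of 27, 20 were above 0, with a median of 0.11. Under scaling by library size alone 26 were, with a median of 0.49. The list took 0.238% ± 0.0156 (SD, n = 3) of all TPM in Control and 0.361% ± 0.0508 (SD, n = 3) in NASH. An interval inside -1 to 1 was found for 19 of the 27. There were 3 that rose (11.1%, where 15.3% of all genes did) and 1 that fell (3.7%, where 3.03% did). Hspa5, the main chaperone, had -0.01 (95% interval -0.50 to 0.47), or 0.36 under scaling by library size alone. Atf3, a stress-induced transcription factor gene, was measured at 1.4, 1.11 and 2.45 CPM in Control and at 9.35, 10.9 and 7.78 CPM in NASH. Chac1 rose by 3.04 but was uneven, with 24.4, 2.87 and 6.5 CPM in NASH, and it was no DEG without Control 4 or Control 29, while Asns fell by 1.41 and was no DEG without Control 4, NASH 5 or NASH 20. Without Control 29, 1 member of the list rose. Of 19 circadian clock genes, 1 rose (Per3, no DEG when any mouse but NASH 5 was left out) and 0 fell, whereas DESeq2 called 3 up and 2 down. Without NASH 5, 2 clock genes rose, and without Control 29, 2 fell. Dbp, which cycles strongly over the day, was measured at 1.18, 1.72 and 6.99 CPM in Control and at 3.16, 19.8 and 24.9 CPM in NASH. The spread within each group was large and the groups overlapped.

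Markers of most immune cells rose in NASH. All 10 macrophage markers were up-regulated, with a median of 3.64 and a range of 2.46 to 3.97, and their summed level was 47.1 to 97.9 TPM in Control and 911 to 1355 TPM in NASH. Adgre1, which encodes F4/80, was measured at 2.68, 3.78 and 6.12 CPM in Control and at 37.2, 24 and 31.5 CPM in NASH (log2 fold change 2.87, standard error 0.29, edgeR, adjusted p = 6.33e-05). Lyz2, the lysozyme of myeloid cells, was measured at 15.8, 16.5 and 30.3 CPM in Control and at 288, 417 and 279 CPM in NASH. In every macrophage marker the lowest NASH mouse exceeded the highest Control mouse. All 7 monocyte markers rose as well, with a median of 4.11, and Ly6c2 was measured at 0.376, 0.278 and 0.663 CPM in Control and at 7.94, 5.7 and 9.61 CPM in NASH.

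Markers of the resident Kupffer cells, the macrophages that populate the healthy liver, were less uniform. Of 9, 5 rose and 0 fell, with a median of 1.48. Cd5l (11801) was measured at 23.3, 30.4 and 42.7 CPM in Control and at 347, 248 and 309 CPM in NASH. The receptor Clec4f, which defines these cells in mice, was measured at 25.5, 34.8 and 43.1 CPM in Control and at 121, 57.2 and 110 CPM in NASH (log2 fold change 1.48, standard error 0.28, edgeR, adjusted p = 0.00253). In both genes NASH 19 was the lowest of the NASH mice. Timd4 and Cd163 were not DEGs, and in NASH 19 they stood at 1.78 and 0.621 CPM against 13.3 and 5.49 CPM in NASH 5 and 8.33 and 5.14 CPM in NASH 20. The scavenger receptor gene Marco showed the same order of mice, with 94.1, 13.9 and 52.5 CPM in NASH, and it was no DEG without Control 4. Without NASH 19, Timd4 was up-regulated, with a log2 fold change of 1.93 (edgeR, adjusted p = 0.00202).

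Of 20 lipid-associated macrophage genes, which mark macrophages that have taken up lipid, 11 rose and 1 fell, with a median of 2.43. In those named next, NASH 19 was the highest of the NASH mice rather than the lowest. Trem2 was measured at 0.268, 0.667 and 0.306 CPM in Control and at 6.23, 22.6 and 8.54 CPM in NASH, and in Gpnmb, Mmp12, Itgax, Lgals3, Lpl and Cd63 NASH 19 was likewise the highest of the 6 mice. Members of the list that hepatocytes express at a high level did not rise, as Apoe had -0.31 (0.06 under scaling by library size alone), Ctsd had 0.53, and Plin2 fell. Plin2, at 489, 390 and 556 TPM in NASH 5, 19 and 20, was lowest in NASH 19. The order among 3 mice was not tested.

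Neutrophil markers rose in most cases. Of 13 markers, 11 rose and 0 fell, with a median of 4.26. The largest rises in this list were in genes of granule proteins. Camp (12796) had 0 counts in all 3 Control mice and 1.21, 1.36 and 1.06 CPM in NASH, which is at least 7.54-fold higher. Ngp, at 0.161, 0 and 0 CPM in Control and 8.56, 8.23 and 7.48 CPM in NASH, was at least 50.5-fold higher, and Mpo was at least 17.2-fold higher. The calcium-binding protein S100a8 was measured at 0.268, 0.111 and 0.357 CPM in Control and at 6.77, 5.16 and 5.23 CPM in NASH. The 2 markers that were not DEGs were the surface proteins Ly6g, with a log2 fold change of 0.62, and Cxcr2, with -0.51, whereas Csf3r, a surface receptor too, rose by 2.66.

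Of 15 markers of T and NK cells, 14 rose and 0 fell, with a median of 2.37. Cd3e, a chain of the T cell receptor complex, was measured at 0.429, 0.334 and 0.204 CPM in Control and at 2.12, 2.52 and 1.96 CPM in NASH (log2 fold change 2.76, standard error 0.33, edgeR, adjusted p = 0.000126). Cd4, Cd8a and the regulatory T cell gene Foxp3 rose by 1.98, 2.07 and 2.60. Prf1, the perforin of killer cells, had 0.01 and overlapping groups. Dendritic cell markers rose in 7 of 9 cases, with a median of 2.28, and in 6 without Control 3, Control 4, NASH 19 or NASH 20. Xcr1 and Zbtb46 were not DEGs, with mean levels of 0.827 and 2.24 TPM in Control and 1.11 and 2.9 TPM in NASH. Itgax, which rose, is also among the lipid-associated macrophage genes. Of 8 B and plasma cell markers, 1 rose, Tnfrsf13b, and 0 fell. That is 12.5% up-regulated, where 15.3% of all genes were. In 0 of the 8 did the interval lie inside -1 to 1, so none excluded a change past the threshold. Cd79b, Mzb1 and Jchain were not DEGs, with mean levels of 1.13, 0.467 and 2.06 TPM in Control and 3.26, 1.09 and 3.75 TPM in NASH. Cd79a, of the B cell receptor, was measured at 1.13, 1.28 and 1.94 CPM in Control and at 1.7, 1.09 and 2.3 CPM in NASH, and Ms4a1 had 0.57 on the log2 scale. Without Control 29, 2 of these markers rose, and without Control 3, Control 29 or NASH 5, 1 fell, namely Sdc1. The list summed to 133 to 156 TPM in Control and 108 to 114 TPM in NASH, but most of this was Sdc1, which hepatocytes express too. Sdc1 took 140 ± 11 TPM (SD, n = 3) in Control and 98.1 ± 2.32 TPM (SD, n = 3) in NASH. It was the 1 member below 0 on the log2 scale, with -0.97, and the other 7 tested were above 0.

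**Figure D5:**
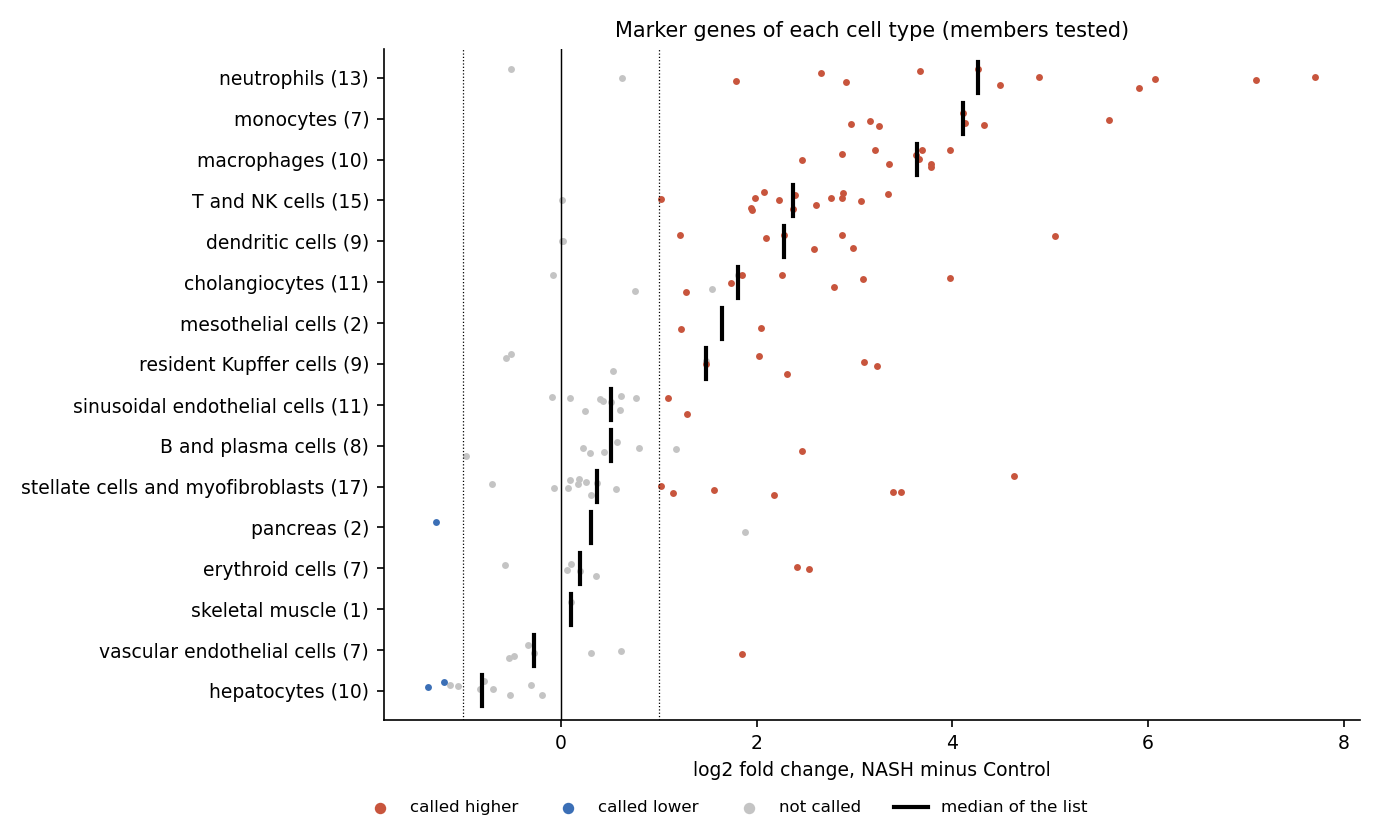
Log2 fold changes (NASH minus Control) of marker genes in 16 cell type lists with at least 1 gene tested, ordered by median, with the number tested in parentheses. Red points were up-regulated, blue points down-regulated and grey points not DEGs. All markers of macrophages and of monocytes lie right of 1, and all 10 hepatocyte markers lie left of 0.

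Signals that recruit and activate these cells rose as well. Of 31 chemokines and chemokine receptors, 26 rose and 0 fell, with a median of 3.13, where 15.3% of all genes rose. Cxcl1 (14825), which attracts neutrophils, was measured at 1.07, 0.89 and 0.918 CPM in Control and at 34.5, 36.4 and 36.1 CPM in NASH. Variation within each group was small against the distance between them (log2 fold change 5.21, standard error 0.55, edgeR, adjusted p = 0.000118). Ccl2, which attracts monocytes, rose by 4.84, and its receptor Ccr2 by 4.13. Cxcl12, made by stromal cells, and Ccl25 had -0.38 and -0.50 and were not DEGs.

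Cytokines and feedback genes of NFkB were above 0 in all 27 cases, with 22 up-regulated and a median of 2.18. Tnf was at 3 counts or fewer in each Control mouse and at 3.41, 2.91 and 3.7 CPM in NASH, at least 20.8-fold higher. Il1b was measured at 0.644, 0.667 and 3.06 CPM in Control and at 7.19, 6.09 and 7.1 CPM in NASH (log2 fold change 2.2, standard error 0.52, edgeR, adjusted p = 0.0091). Control 29 stood above the other Control mice and still below every NASH mouse. Nos2, the inducible nitric oxide synthase, was at least 12.1-fold higher, Ptgs2, the inducible cyclooxygenase, at least 4.66-fold higher and Sele, the adhesion molecule of activated endothelium, at least 3.43-fold higher. Il6, Il10, Il12b, Ifng and Ifnb1 had too few counts to be tested. Among Toll-like receptors and inflammasome genes, 22 of 29 rose and 1 fell, with a median of 2.81. Tlr2 was measured at 1.13, 1.28 and 1.28 CPM in Control and at 22.9, 17 and 18.1 CPM in NASH, and Clec4e, a receptor for damaged cells and mycobacterial lipids, was at least 32.9-fold higher. Tlr5, the flagellin receptor, was the gene that fell, from 8.59, 9.29 and 15.5 CPM to 1.54, 2.25 and 2.81 CPM.

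Interferon-induced genes were above 0 in all 43 cases. Of these, 32 rose and 0 fell, with a median of 1.66, and the groups of mice did not overlap in 40, where 27.4% of all genes had higher, non-overlapping levels. Tgtp1, an interferon gamma induced GTPase, was measured at 3.43, 4.39 and 5.05 CPM in Control and at 82.8, 44.8 and 76.1 CPM in NASH (log2 fold change 3.98, standard error 0.33, edgeR, adjusted p = 2.3e-05). It shares most of its sequence with Tgtp2 (2.61, and no DEG without Control 4), so their single values are uncertain. Gbp2 (14469), a guanylate-binding protein, was measured at 2.25, 2.28 and 5.36 CPM in Control and at 31.3, 18.5 and 37.4 CPM in NASH. Of further members, Oas1a, Oas2 and Ifi44 rose by 3.10, 2.48 and 3.12, while Ifit1, Rsad2, Usp18 and Irf9 had 1.14, 0.48, 1.2 and 0.26 and were not DEGs. Without Control 29, Ifit1, Rsad2 and Usp18 were DEGs, with 2.03, 1.05 and 2.11. NASH 19 was the lowest of the NASH mice in Tgtp1 and Gbp2.

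The promoters of Gbp2, Tgtp1 and Tgtp2 are shown because most interferon-induced genes searched held the core of the interferon-stimulated response element, TTTCNNTTT on either strand. It was found in the 250 bases before the start of 23 of 33 list members with a RefSeq window (69.7%) and in 8.92% of 10824 tested genes. Among the members that were DEGs it was found in 17 of 25. The list was chosen for genes known to respond to interferon, so this share describes the list and was not tested. Each line is the strand of the gene, 5′ to 3′, from RefSeq on GRCm38.p6, with matches in capitals. Gbp2 is on the plus strand at chr3:142620413-142620662, Tgtp1 on the minus strand at chr11:48992247-48992496 and Tgtp2 on the minus strand at chr11:49064213-49064462.
Gbp2: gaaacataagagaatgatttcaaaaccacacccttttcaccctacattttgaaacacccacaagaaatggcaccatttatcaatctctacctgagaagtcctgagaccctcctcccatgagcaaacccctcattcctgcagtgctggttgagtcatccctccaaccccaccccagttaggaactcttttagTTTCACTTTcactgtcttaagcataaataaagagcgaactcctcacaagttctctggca
Tgtp1: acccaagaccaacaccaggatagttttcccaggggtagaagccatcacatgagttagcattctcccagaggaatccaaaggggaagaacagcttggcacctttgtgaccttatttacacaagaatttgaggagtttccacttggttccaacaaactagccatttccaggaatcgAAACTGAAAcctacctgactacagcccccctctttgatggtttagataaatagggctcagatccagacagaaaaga
Tgtp2: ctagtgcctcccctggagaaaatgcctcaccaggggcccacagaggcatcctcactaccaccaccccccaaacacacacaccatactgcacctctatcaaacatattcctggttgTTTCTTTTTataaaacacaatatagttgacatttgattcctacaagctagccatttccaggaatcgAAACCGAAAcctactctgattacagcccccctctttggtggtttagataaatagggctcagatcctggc
The match lay from -59 to -51 before the start of Gbp2, from -76 to -68 in Tgtp1 and from -69 to -61 in Tgtp2, which held a further match from -135 to -127. In both Tgtp genes the nearer match was on the opposite strand.

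Antigen presentation genes were above 0 in all 25 cases, with 17 up-regulated, 0 down-regulated and a median of 1.59. The class II genes rose most. H2-Aa was measured at 12.9, 27.3 and 31 CPM in Control and at 242, 290 and 345 CPM in NASH, Cd74, the invariant chain, rose by 3.59, and Ciita, the class II transactivator, by 3.83 on the log2 scale. Class I heavy chains are near-identical in places and uncertain, but B2m, their common light chain, had 0.27 (95% interval -0.07 to 0.61), while the immunoproteasome subunits Psmb8 and Psmb9 rose by 2.05 and 2.14.

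Lysosomal genes rose in 10 of 44 cases (22.7%, where 15.3% of all genes did) and fell in 0. The median was 0.45, and 26 had an interval inside -1 to 1. Besides Gpnmb, those that rose included Ctss (3.93), Atp6v0d2 (3.65), Cd63 (3.50), Cd68 (3.35), Laptm5 (3.02), Ctsk (2.15), Lgmn (1.94) and Ctsc (1.36), most of which are abundant in macrophages. Ctss, a protease of antigen processing, was measured at 8.21, 10.3 and 18.2 CPM in Control and at 148, 228 and 185 CPM in NASH. Scaled by library size alone, 17 rose. The E-box TCACGTG that MiT/TFE factors recognize was found before the start of 11 of 33 members with a window (33.3%), against 5.56% of 10824 tested genes, but in 1 of the 8 that were DEGs.

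Collagen and matrix genes rose in NASH. Of 29 collagen chains, 16 rose and 0 fell, with a median of 1.39. Col1a1 (12842), the main chain of fibrillar collagen, was measured at 3.11, 4.11 and 3.32 CPM in Control and at 68.5, 98.4 and 94.7 CPM in NASH (log2 fold change 4.63, standard error 0.32, edgeR, adjusted p = 8.66e-06). Col3a1 and Col1a2 rose by 3.47 and 3.39, the fibril-regulating Col5a2 by 2.67 and the basement membrane chains Col4a1 and Col4a2 by 1.49 and 1.39. Without Control 4, 1 chain fell.

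Other matrix proteins and remodelling enzymes rose in 30 of 46 cases and fell in 0, with a median of 1.46. Timp1, the inhibitor of matrix proteases, was at 3 counts or fewer in each Control mouse and at 4.03, 6.52 and 7.01 CPM in NASH, at least 36.5-fold higher. Proteases rose alongside it, as Mmp12, the macrophage elastase, had 0.215, 0.167 and 0.357 CPM in Control and 24.2, 64.8 and 46.8 CPM in NASH, and Mmp13, a collagenase, was at least 6.72-fold higher. Lox, which crosslinks collagen, rose by 3.15 and Tnc, a matrix protein of injury, by 3.27.

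Markers of stellate cells and myofibroblasts moved unevenly. Of 17, 7 rose and 0 fell, with a median of 0.37. Those that rose were Col1a1, Col3a1, Col1a2, Lum, Pdgfrb, Pdgfra and Tagln, at 1.02 to 4.63, and Tagln was no DEG when any 1 of the 6 mice was left out, nor Pdgfra without Control 3, Control 4 or NASH 19. Acta2, the contractile actin used to stain myofibroblasts, was measured at 4.94, 2.11 and 2.91 CPM in Control and at 3.16, 3.73 and 3.7 CPM in NASH. The groups overlapped, and the log2 fold change was 0.09 with a 95% interval of -0.84 to 1.02. Lrat, which stores vitamin A in quiescent stellate cells, had -0.07 (95% interval -0.71 to 0.57), or 0.24 under scaling by library size alone. Ligands and receptors of TGF beta, PDGF and the CCN family rose in 10 of 25 cases and fell in 1, with a median of 0.85. Tgfb1 was measured at 6.76, 11.8 and 10.2 CPM in Control and at 35.3, 33 and 32.6 CPM in NASH (log2 fold change 1.81, standard error 0.19, edgeR, adjusted p = 5.79e-05), and Ccn2 rose by 1.14, or by 0.96 and as no DEG without Control 3. Without Control 3 the list had 5 up-regulated members and without NASH 19 it had 6.

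Cholangiocyte markers, which line the bile ducts, rose in 7 of 11 cases with a median of 1.81, and NASH 19 had the highest levels of both named here. Krt19 was measured at 0.966, 1.67 and 0.408 CPM in Control and at 2.7, 6.05 and 2.13 CPM in NASH, and Epcam at 1.23, 2.11 and 1.63 CPM in Control and at 3.37, 10.4 and 2.85 CPM in NASH. Without NASH 19, Krt19 and Epcam had log2 fold changes of 1.22 and 0.87 and were no DEGs, and 5 markers rose, as also without Control 3 or Control 29. Without Control 4, Epcam was also no DEG. Of 11 sinusoidal endothelial markers 2 rose, Lyve1 and Cdh5 (18.2%, where 15.3% of all genes did). Without Control 3 none did, and without Control 4, NASH 5 or NASH 20, 1 did, while Stab2 had 0.61. Vascular endothelial markers had 1 that rose of 7, Cd34 (14.3%, where 15.3% of all genes did). Their median of -0.28 became 0.04 under scaling by library size alone.

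Genes of the cell cycle and mitosis rose in 29 of 41 cases and fell in 0, with a median of 1.68, from low levels. Mki67, a marker of dividing cells, was measured at 0.805, 0.222 and 0.357 CPM in Control and at 2.49, 10.9 and 6.38 CPM in NASH (log2 fold change 3.82, standard error 0.81, edgeR, adjusted p = 0.00559). Top2a rose by 3.59 and Ccnd1 by 2.14. Together these 42 genes took 127 to 144 TPM in Control and 224 to 274 TPM in NASH. Pcna, the sliding clamp of DNA synthesis, had 0.11 and was not a DEG, although Mcm2 to Mcm6 rose by 1.29 to 2.18. Of the fetal liver genes, 5 could be tested. Cd24a rose, Igf2 fell and was no DEG without Control 3, Control 29, NASH 19 or NASH 20, and Afp, the fetal counterpart of albumin, had 1.04 and was not a DEG.

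Of other tissues and cells that a liver piece can carry, most left little trace in the markers that were available. Erythroid genes were the exception, at 1163 TPM or more in every mouse. Prss1, Prss2, Cpa1, Pnlip and Amy2a5 of the pancreas, Retn and Lep of adipocytes and Myh4 of muscle were not among the deposited genes. They could therefore show no trace. Markers of mast cells and basophils and of adipocytes had too few counts to be tested, with at most 0.55 and 0.71 TPM in any of these mice for the whole list. Skeletal muscle markers summed to 0.72 to 1.26 TPM in Control and 1.09 to 2.4 TPM in NASH, and 3 markers of the exocrine pancreas to 7.54 to 12.3 TPM and 6.71 to 7.29 TPM. Of the 2 pancreas markers tested, Cela1 fell (-1.28) and Cela2a was not a DEG. Cela1 was no DEG without Control 4, without NASH 5 or under scaling by library size alone. Mesothelial markers summed to 0.44 to 1.57 TPM and 2.14 to 4.26 TPM, and the 2 that could be tested, Wt1 and Gpm6a, rose. Without NASH 20 neither did, and Gpm6a was no DEG when any mouse but NASH 5 was left out. Haemoglobin and other erythroid genes summed to 1163 to 1571 TPM and 1340 to 2387 TPM, which overlap. The globin genes had log2 fold changes of 0.06 to 0.36 and were not DEGs, while Slc4a1, of the red cell membrane, rose by 2.41.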

How the data were processed

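Liver mRNA of 9 mice was sequenced, 1 library per mouse. The authors deposited, per Entrez Gene identifier, estimated counts without normalization, FPKM and TPM. The submitters' processing notes name HISAT2 2.1.0, Bowtie2 2.2.5, RSEM 1.2.8 and the build GRCm38.p6, without their roles. The annotation is not given in the sources used here. RefSeq symbols of GRCm38.p6 matched 17728 of 17846 identifiers, and GENCODE gave 13 more.

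Estimated counts were rounded and tested with edgeR 4.0.16 in R 4.3.3 (filterByExpr by group with at least 10 counts and a total of 15, TMM, robust quasi-likelihood fit of all 9 mice, 6 residual degrees of freedom, Benjamini-Hochberg adjustment over 13619 genes). The biological coefficient of variation was 0.192. DEGs are as defined in the text. Standard errors are the log2 fold change over the root of F. TPM served for levels across genes and for shares of the pool, and FPKM only as an alternative. Alternatives used DESeq2 1.42.0, limma 3.58.1 and other scalings and filters. The edgeR, DESeq2 and limma fits were run on simulated counts in which few genes changed, at random in either direction. That setting lacks the excess of up-regulated genes seen here, so the fits were not tested under such an excess. The labels do not say whether mice shared a cage or a batch.

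The comparison and the gene lists were chosen with earlier results of these data known, so no list was tested as a set, and the lists overlap. Named genes were the 15 largest changes in each direction at 5 CPM or more without overlap of the groups, the 2 largest in each direction per list, the 10 highest by TPM, cell type markers and textbook genes. Other genes were chosen after their values were seen. The limit that depth sets was not tested. Motifs were searched as given in the text.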

Additional observations from a re-analysis of the deposited data

How the results depend on the processing

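The 2494 DEGs became 2433 with only the 6 mice in the fit, 2473 with DESeq2, 2477 with median-ratio size factors, 2482 with limma-voom, 2658 without a filter on low counts and 1760 with a filter of 50 counts in 3 mice. Leaving out 1 mouse gave 2152 (without NASH 19) to 2580 (without Control 29). edgeR's glmTreat, which requires a fold beyond the threshold, called 1309 genes, 1155 up and 154 down, and an adjusted p under 0.05 alone called 4846, 1960 of them down. Scaling by library size alone called 219 down instead of 412. Of the named genes, 54 were no longer called by glmTreat and 21 under scaling by library size alone. The genes whose sign turned were not DEGs. By library size alone these were Apoe (0.06), Cps1 (0.04), Hspa5 (0.36) and Lrat (0.24), and with the filter of 50 counts Hspa5 (0.03). With DESeq2, median-ratio factors and no filter, Pklr had -0.01, -0.00 and -0.01, and Prf1 had -0.02 in each. Without 1 mouse the log2 fold change ranged from -0.17 to 0.48 for Acta2, -0.06 to 0.45 for Cd79a, -0.19 to 0.18 for Hspa5, -0.34 to 0.20 for Lrat, -0.22 to 0.22 for Pklr and -0.21 to 0.42 for Prf1. The cause was not tested. No paired analysis was possible because the groups share no replicate numbers. At 3 counts or fewer in each mouse of a group, only a lower bound of the fold could be given, and no other limit of depth was tested.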
